A study of Saccharomyces cerevisiae with 5 samples.

Results

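Expression of 10 genes of inositol and phospholipid synthesis was followed in Saccharomyces cerevisiae across 3 comparisons of strains under salt. The genes are INO1 (YJL153C), ITR1 (YDR497C), CHO1 (YER026C), PSD1 (YNL169C), CHO2 (YGR157W), OPI3 (YJR073C), CKI1 (YLR133W), CPT1 (YNL130C), EPT1 (YHR123W) and OPI1 (YHL020C), 10 out of 6388 genes with a probe on the arrays. They were chosen by pathway and with their measured ratios in these comparisons known. The ratios given here for these 10 genes are therefore a description, and their counts support nothing on their own.

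All cultures had received 0.5 mol/L NaCl for 45 min, and RNA of 2 strains was hybridised to each of 5 arrays, 1 strain in Cy5 and 1 in Cy3. The strain bdf1Δ, which lacks the bromodomain factor Bdf1, was compared on 1 array with W303, the laboratory strain from which it derives. The strain bdf1Δ+HAL2 was compared with bdf1Δ on 2 arrays with exchanged dyes, and so was the double mutant bdf1Δhda1Δ, which also lacks the histone deacetylase Hda1. HAL2 codes for a salt-sensitive phosphatase of adenosine bisphosphate. Every strain other than W303 thus carries the BDF1 deletion, and every strain, the references included, had the salt. How HAL2 was added, and how many clones of a strain were grown, is not given in the sources used here. The exchanged arrays carry the same pair of samples, so each comparison has 1 replicate and no p-value was computed. Errors are SDs, taken over 2 arrays where dyes were exchanged and over repeat spots on the single array, and they cover technical spread only. In bulk cultures a change in every cell and a change in some of the cells cannot be told apart.

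Inositol is joined to CDP-diacylglycerol to make phosphatidylinositol, and the same CDP-diacylglycerol feeds phosphatidylserine, phosphatidylethanolamine and phosphatidylcholine in turn. Phosphatidylcholine and phosphatidylethanolamine are also made from choline and ethanolamine by the Kennedy pathway. In budding yeast many of these genes share an activator, the pair Ino2 and Ino4, and a repressor, Opi1, which is held at the endoplasmic reticulum by phosphatidic acid and leaves for the nucleus when inositol is plentiful.

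The deleted and added genes were read first. BDF1 spots exceeded background in 0 of the 9 channels whose strain lacks BDF1, while 3 of 3 spots did in W303. HAL2, listed as MET22 in the gene table, stood 3.73 ± 0.15 (log2, SD of 2 arrays) higher in bdf1Δ+HAL2. HDA1 was above background in 0 of 3 spots of bdf1Δhda1Δ on both arrays, but also in 0 of 3 spots of bdf1Δ on array 1 and in 2 of 3 on array 2, so it checks the labels only weakly. The arrays differed in how many spots could be read. The image software found 72.9% and 68.9% of gene spots on the bdf1Δ+HAL2 pair, 32.9% and 40.3% on the bdf1Δhda1Δ pair and 58.5% on the bdf1Δ versus W303 array. On that last array the bdf1Δ channel exceeded background in only 36.9% of gene spots, against 91.2% for W303.

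With HAL2 added to bdf1Δ, all 10 genes were measured and all 10 lay above 0 on both arrays. INO1 was the only one past 2-fold on both, the rule the labels state, which 19 of 4266 genes met in that direction (0.445%), while 0 of the 10 passed it downward (1.03% of all genes). The 10 genes had a median log2 ratio of 0.76 and ran from 0.39 to 2.09, where all measured genes had a median of 0.00 and a middle range of −0.17 to 0.16. Of all genes measured, 33.8% lay above 0 on both arrays.

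INO1 codes for inositol-3-phosphate synthase, which starts inositol synthesis from a glucose phosphate. Its log2 ratio of bdf1Δ+HAL2 over bdf1Δ was 2.07 on array 1 and 2.10 on array 2. The mean was 2.09 ± 0.02 (SD of 2 arrays). Its net intensity, the spot median less the local background, was 2369 in bdf1Δ+HAL2 against 360 in bdf1Δ on array 1, and 1886 against 432 on array 2. The bdf1Δ+HAL2 channel was thus the brighter one with either dye. The bdf1Δ signal was weak: it exceeded background in 0 of 3 spots on array 1 and in 3 of 3 on array 2, so only array 2 measured INO1 in both strains. INO1 counted on array 1 through the bdf1Δ+HAL2 channel alone, and the mean and SD rest in part on that dim bdf1Δ signal. Where both channels had to exceed background, INO1 was not measured and none of the 10 genes was called. In the authors' deposited table its log2 ratios were 2.63 and 2.59.

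ITR1 codes for the main inositol transporter of the plasma membrane. Its log2 ratio was 1.12 on array 1 and 0.97 on array 2, with a mean of 1.05 ± 0.11, which is 2.07-fold. Only array 1 was past 2-fold, so ITR1 was not called, though after scaling between arrays it was. Its net intensity was 17911 in bdf1Δ+HAL2 against 6854 in bdf1Δ on array 1 and 11566.5 against 8215.5 on array 2, far above background in both strains. INO1 and ITR1, the members that supply inositol by synthesis or by uptake, were each higher in bdf1Δ+HAL2 on both arrays. Other pathway genes for inositol went both ways. ITR2 was higher, at 0.26 and 0.48, and INM1 lower, at −0.29 and −0.60. On array 2 the bdf1Δ+HAL2 channel of INM1 exceeded background in 0 of 3 spots.

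CHO1 codes for phosphatidylserine synthase, and PSD1 for the mitochondrial enzyme that decarboxylates phosphatidylserine to phosphatidylethanolamine. CHO1 had log2 ratios of 0.55 and 0.84 on arrays 1 and 2, a mean of 0.70 ± 0.21. PSD1 had 1.06 and 0.79, a mean of 0.93 ± 0.19. PSD1 was above CHO1 on array 1 and below it on array 2, so these values give no order of the genes. With each printing block normalized on its own, PSD1 had 0.85 and 0.83 against 0.66 and 0.63 for CHO1. In the authors' deposited table PSD1 had 0.82 and 0.87 against 0.72 and 0.69. Their order on array 2 thus depends on the processing. Over 9 settings the mean of PSD1 ran from 0.84 to 1.08 and that of CHO1 from 0.65 to 0.80. The net intensity of CHO1 was 4360.5 in bdf1Δ+HAL2 against 2504 in bdf1Δ on array 1, and 2522 against 1531 on array 2. PSD1 shone at 3444 in bdf1Δ+HAL2 against 1353.5 in bdf1Δ on array 1, and at 1948 against 1288 on array 2.

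CHO2 and OPI3 code for the methyltransferases that turn phosphatidylethanolamine into phosphatidylcholine, Cho2 adding the first methyl group and Opi3 the rest. CHO2 had log2 ratios of 0.27 and 0.58, a mean of 0.42 ± 0.22, and was the second lowest of the 10 genes. OPI3 had 0.86 and 0.82, a mean of 0.84 ± 0.02. OPI3 was above CHO2 on both arrays, but with each printing block normalized on its own (print-tip loess) OPI3 had 0.57 and CHO2 0.63 on array 1, the opposite order. The CHO2 signal was 6771.5 in bdf1Δ+HAL2 against 4678.5 in bdf1Δ on array 1 and 3772 against 2975 on array 2. OPI3 was bright throughout, at 16306.5 against 7820.5 on array 1 and 10908 against 8519 on array 2.

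The Kennedy pathway genes were choline kinase CKI1, cholinephosphotransferase CPT1 and ethanolaminephosphotransferase EPT1. CKI1 had log2 ratios of 0.91 and 0.46, a mean of 0.69 ± 0.32, the widest spread between arrays among the 10 genes. Under print-tip loess CKI1 had 0.85 and 0.79, so that spread depends on the normalization. It was past 2-fold on both arrays in the authors' deposited table only. CPT1 had 0.84 and 0.79, a mean of 0.82 ± 0.03. EPT1 had 0.59 and 0.61, a mean of 0.60 ± 0.02. CPT1 was above EPT1 on both arrays by more than either gene's SD. Net intensities of CKI1 were 2583 in bdf1Δ+HAL2 against 1063.5 in bdf1Δ on array 1 and 1190 against 923 on array 2. Its margin was thus narrower where bdf1Δ+HAL2 was in Cy3, as was that of each of the 10 genes. Before normalization, 84.3% of all genes were brighter in bdf1Δ+HAL2 on array 1 and 24.6% on array 2. CPT1 shone at 5528 against 2682.5 and at 2861 against 1908, and EPT1 at 2008.5 against 1036.5 and at 1680 against 1220. Cpt1 and Ept1 are related enzymes, and with no probe sequences at hand, hybridisation of one gene's RNA to the other's spots could not be examined.

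OPI1 codes for the repressor of the pathway. Its log2 ratio was 0.24 on array 1 and 0.54 on array 2, a mean of 0.39 ± 0.21 and the lowest of the 10 genes, at rank 336 from the highest of 4266. Its net intensity was 1431 in bdf1Δ+HAL2 against 1036.5 in bdf1Δ on array 1 and 1200.5 against 912 on array 2. In order of their means the genes ran INO1, ITR1, PSD1, OPI3, CPT1, CHO1, CKI1, EPT1, CHO2 and OPI1. INO1 lay above ITR1 on both arrays, and on array 2, where INO1 was measured in both strains, at 2.10 against 0.97. The SD of INO1 rests in part on the dim bdf1Δ signal of array 1, so that gap was not set against it. From ITR1 to OPI1 every neighbouring pair in that order differed by less than the larger of its SDs.

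**Figure D1:**
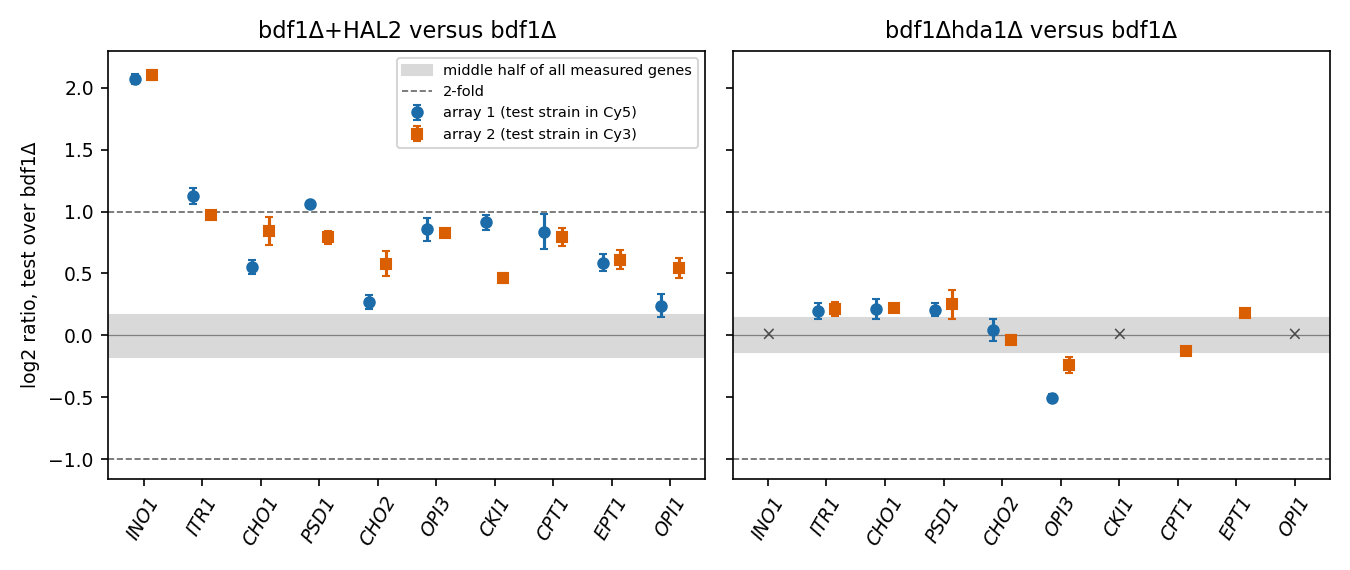
Log2 ratio of the test strain over bdf1Δ for the 10 genes on each array of both dye-exchanged pairs; points are means of repeat spots with their SD, the grey band is the middle range of all measured genes and dashed lines mark 2-fold. In bdf1Δ+HAL2 all 10 genes lie above 0 on both arrays with INO1 at 2.07 and 2.10, whereas in bdf1Δhda1Δ no gene passes 2-fold and crosses mark genes measured on neither array.

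The unnormalised intensities gave the same direction for bdf1Δ+HAL2. All 10 genes were brighter in that strain on both arrays, although over all genes the share brighter in bdf1Δ+HAL2 was 84.3% on array 1 and 24.6% on array 2. The 10 probes lie in 10 different printing blocks of the slide. Each was set against the 20 spots of its own block nearest to it in the intensity of the bdf1Δ channel. Each of the 10 genes was above at least 17 of its 20 neighbours on both arrays. The share of all genes that did so is not given here, and the members were chosen with these ratios known. That count is therefore a description only. Under print-tip loess all 10 also lay above 0 on both arrays, from 0.26 for OPI1 on array 1 to 2.29 for INO1 on array 2. The share of all genes above 0 in that setting is not given here, so this too is a description only.

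**Figure D2:**
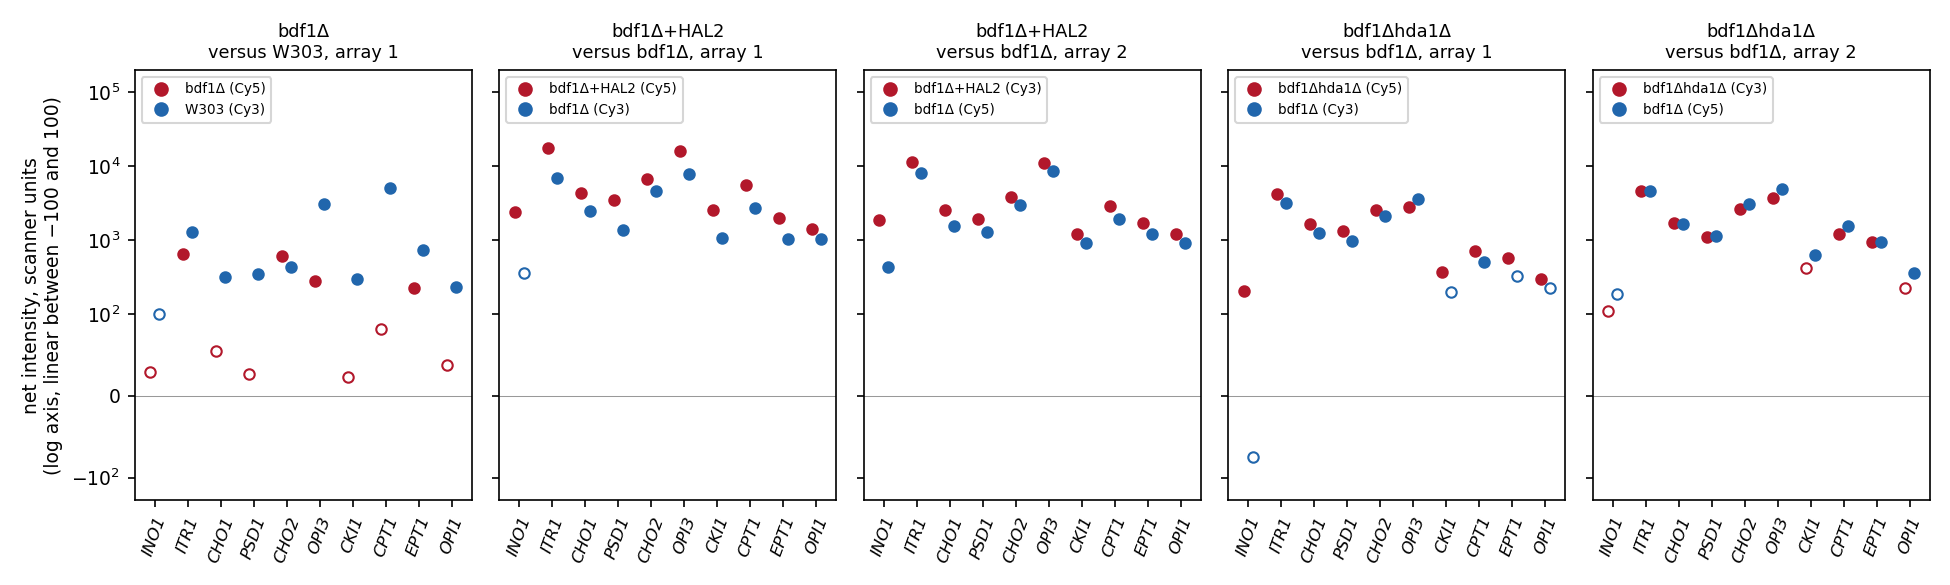
Net intensity of the 10 genes in each channel of the 5 arrays (scanner units, log axis that is linear near 0), with filled points where at least 2 of 3 spots exceeded background. In bdf1Δ+HAL2 every gene is brighter than in bdf1Δ with either dye, and on the bdf1Δ versus W303 array only CHO2 is brighter in bdf1Δ, at 605 against 425.

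The 5 genes nearest to INO1 in their log2 ratios were found by Euclidean distance over the 2 arrays of bdf1Δ+HAL2, among 4265 other genes. PRM1, a gene of mating cells, was nearest at a distance of 0.275, with log2 ratios of 1.87 and 1.91. ARO10 and ARO9, of aromatic amino acid breakdown, lay at 0.691 and 0.860. FIT2 and FRE1, of iron uptake, lay at 0.764 and 0.766. No other member of the 10 was among these 5 genes.

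Loss of HDA1 from bdf1Δ was measured for only 5 of the 10 genes, and 0 of the 5 passed 2-fold, against 1.06% of 2074 genes higher and 0.627% lower. Their median log2 ratio was 0.20, where all genes had a median of 0.01 and a middle range of −0.14 to 0.14. ITR1 had log2 ratios of 0.19 and 0.21, a mean of 0.20 ± 0.01. CHO1 had 0.21 and 0.22, a mean of 0.22 ± 0.01. PSD1 had 0.21 and 0.25, a mean of 0.23 ± 0.03. These 3 genes were above 0 on both arrays, with means between 0.20 and 0.23. Of all genes, 38.3% lay above 0 on both arrays and 36.5% below. CHO2 was at 0.04 and −0.03, on either side of 0. By net intensity, 9 of the 10 genes were brighter in bdf1Δhda1Δ on array 1 and 1 of the 10 on array 2, where over all genes the shares were 92.2% and 13.5%.

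OPI3 was the only measured member below 0 on both arrays of bdf1Δhda1Δ. Its log2 ratio was −0.51 on array 1 and −0.24 on array 2, a mean of −0.38 ± 0.19, at rank 161 from the lowest of 2074 genes. Its net intensity was 2803 in bdf1Δhda1Δ against 3555 in bdf1Δ on array 1 and 3687 against 4882 on array 2. It was dimmer with either dye in the double mutant. Of the 20 nearest spots of its block, 6 were lower than OPI3 on each array, so its place among them was not extreme.

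INO1, CKI1 and OPI1 were not measured in this comparison because the image software had found none of their spots on either array. CPT1 and EPT1 had enough spots on array 2 only, at −0.13 and 0.18. INO1 stood at net intensities of 202.5 in bdf1Δhda1Δ and −74.5 in bdf1Δ on array 1, then 108 and 183 on array 2. The bdf1Δhda1Δ channel was the brighter one on array 1 and the dimmer one on array 2, so no fold is given. In the authors' deposited table, INO1 had log2 ratios of 1.79 and 0.40 on these arrays, from those dim spots. A change of INO1 was therefore not measurable in bdf1Δhda1Δ.

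The comparisons with bdf1Δ+HAL2 and with bdf1Δhda1Δ share the reference strain, and whether they share its RNA is not stated. Side by side, ITR1 had means of 1.05 and 0.20, CHO1 0.70 and 0.22, PSD1 0.93 and 0.23, CHO2 0.42 and 0.01, and OPI3 0.84 and −0.38. For each of these 5 genes the value in bdf1Δ+HAL2 was the higher one on every array. The difference between the comparisons was not tested, as each has 1 replicate.

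Between bdf1Δ and W303 the genes went different ways on the single array. Of 8 measured genes, CHO2 was past 2-fold higher, against 15.9% of 3688 genes, and OPI3 and CPT1 were past 2-fold lower, against 18.4%, CPT1 with no bdf1Δ spot above background. The 8 genes had a median log2 ratio of 0.06 and ran from −3.86 to 2.15. The median net intensity over gene spots was 61 in bdf1Δ and 364 in W303. Loess normalization makes each ratio relative to genes of similar intensity on this array. The dye and the strain cannot be told apart on 1 array.

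CHO2 had a log2 ratio of 2.15 ± 0.12 (SD of 3 spots), which is 4.45-fold, at rank 29 from the highest. It was the only member with a brighter signal in bdf1Δ, 605 against 425 in W303, and 3.87% of all genes had a brighter signal in bdf1Δ. It was also above all 20 of the spots nearest to it in its block, whose median was 0.64. Print-tip loess gave a log2 ratio of 1.01, still past 2-fold, and scaling between arrays gave 0.71, which is not.

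OPI3, which acts after CHO2, had a log2 ratio of −2.11 ± 0.35, or 4.31-fold lower in bdf1Δ. Its net intensity was 276.5 in bdf1Δ and 3099.5 in W303. Print-tip loess gave −1.24, and scaling between arrays gave −0.70, which is within 2-fold. Of its 20 nearest spots, 4 were lower still, and their median was −1.46.

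CPT1 shone at 5043.5 in W303 and at 81 in bdf1Δ, where 0 of 3 spots exceeded background. Its fitted log2 ratio of −3.86 ± 0.10 therefore holds no measured level of bdf1Δ, and no fold or rank is given. Print-tip loess gave −0.25, so the call rests on the normalization. Scaling between arrays gave −1.28, and CPT1 was past 2-fold lower in 7 of 8 settings. With both channels required above background it was not measured. It was below all 20 of its nearest spots, whose median was −2.12 and whose W303 signals, 1452.5 to 3841.5, were all weaker than that of CPT1.

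ITR1 had a log2 ratio of 0.32 ± 0.12, CHO1 0.65 ± 0.15 (2 spots), EPT1 0.19 ± 0.19, PSD1 −0.07 ± 0.13 and CKI1 −0.06 ± 0.18. In bdf1Δ, PSD1 and CKI1 exceeded background in 0 of 3 spots and CHO1 in 1 of 3, so their ratios hold no level of bdf1Δ. INO1 and OPI1 were not measured: INO1 stood at 28.5 in bdf1Δ and 100 in W303, with 1 of 3 spots above background in W303. The share of variance between the 48 printing blocks was 35.8% on this array and at most 10.7% on the others. Spot SDs leave that part out.

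**Figure D3:**
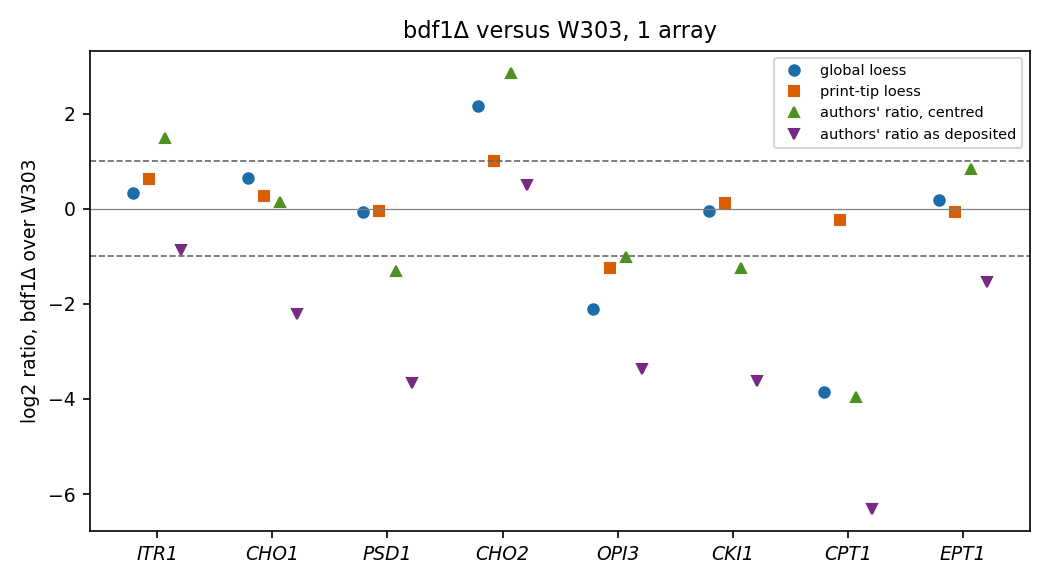
Log2 ratio of bdf1Δ over W303 on the single array for the 8 measured genes, under global loess, print-tip loess and the authors' deposited ratio with and without centring on its median; dashed lines mark 2-fold. CPT1 lies at −3.86 under global loess and at −0.25 under print-tip loess, while CHO2 lies above 0 and OPI3 below 0 in all 4. In the authors' ratio without centring, 83.2% of all genes are past 2-fold lower, so a value below 0 there is shared with most genes.

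Of 37 other genes of the pathway, 28 were measured in bdf1Δ+HAL2 and 0 passed 2-fold, against 0.445% of all genes higher and 1.03% lower. Of the 28, 11 (39.3%) lay above 0 on both arrays and 6 (21.4%) below, against 33.8% and 34.1% of all genes, with a median of 0.07 and a range of −0.44 to 0.85. Of the activator genes, INO2 had log2 ratios of −0.23 and −0.04, at rank 3023 from the highest of 4266 genes, and INO4 had 0.29 and 0.19, at rank 727. The highest, named after their values were seen, were the choline transporter HNM1, at 0.55 and 1.16, and the CDP-diacylglycerol synthase CDS1, at 0.91 and 0.64. The lowest, also named after their values were seen, were INM1, at −0.29 and −0.60, and GDE1, at −0.26 and −0.52. In bdf1Δhda1Δ 11 of the 37 genes were measured, with a median of −0.07. URA8, a CTP synthase, was the only one past 2-fold, at a mean of 1.02 ± 0.00, against 1.06% of all genes higher. It was not past 2-fold on both arrays by print-tip loess (1.00 and 0.95), without background correction or by spot medians. Neither INO2 nor INO4 was measured in bdf1Δhda1Δ.

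In bdf1Δ against W303, 24 of the 37 genes were measured, 6 past 2-fold higher and 0 lower, against 15.9% and 18.4% of all genes, with a median of −0.06. The phospholipase gene NTE1 was highest at 1.66 ± 0.02 (SD of 3 spots). The lipid phosphatases LPP1 and PAH1 had 1.23 ± 0.07 and 1.17 ± 0.42, and the phospholipase PLB1 had 1.19 ± 0.08. SIN3 and RPD3, subunits of a histone deacetylase complex, had 1.16 ± 0.05 and 1.12 ± 0.24. Under print-tip loess none of these 6 was past 2-fold, their values running from −0.12 for PLB1 to 0.92 for LPP1. In that setting 1 other pathway gene was past 2-fold higher, and so were 5.94% of all genes. INO4 was at −0.29 ± 0.68, and INO2 was not measured.

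**Figure D4:**
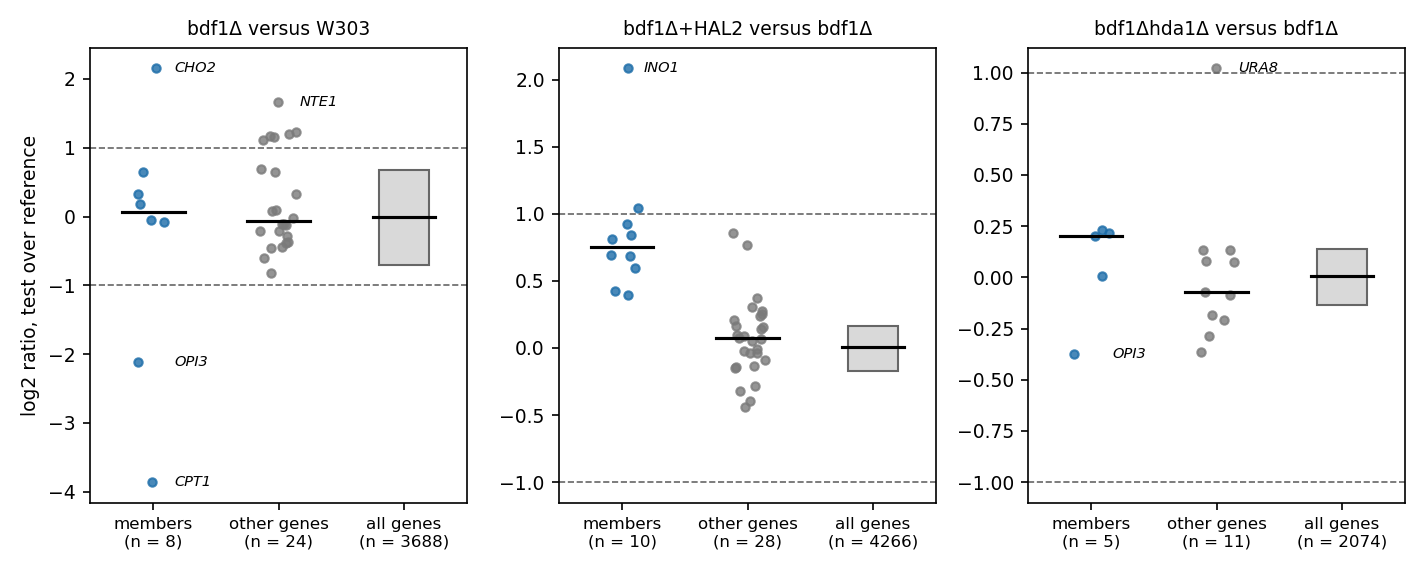
Log2 ratios of the measured members, of the other genes of the pathway and, as a box from the lower to the upper quartile, of all genes in each comparison; black lines are medians and dashed lines 2-fold. The members have a median of 0.76 in bdf1Δ+HAL2, where the other pathway genes have 0.07, and of 0.06 and 0.20 in the other comparisons.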

How the data were processed

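The deposited scanner files hold the red and green spot intensity and local background, per the file headers; the image software was not stated. The authors' deposited table, with 1 linear ratio for each probe, served as an alternative. Set against the scanner values (Pearson 0.758 to 0.955 across genes), all 5 columns of the authors' deposited ratio run as test over reference. Their medians were 0.195 for bdf1Δ versus W303, 1.01 and 0.992 for bdf1Δ+HAL2, and 1.04 and 1.01 for bdf1Δhda1Δ. The first column is not centred, and how the others were centred is unknown.

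Spot and background medians were corrected by normexp (offset 50) and normalized by global loess, with weight 0 for control and unfound spots (limma 3.58.1, R 4.3.3). The sign was turned where the test strain was in Cy3. A spot counted if found and brighter than background plus 2 SDs of the background in at least 1 channel. Genes were measured with at least 2 of its 3 spots on every array, taken as their mean, and called when past 2-fold in the same direction on every array. Python 3.11.15, NumPy 2.4.6, pandas 2.3.3 and matplotlib 3.10.9 served for the rest, and the steps were tested on simulated data.

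The R64 gene table held 5849 of the 6388 systematic names; the files name no build, so no coordinates are given, and probe and promoter sequences were not used here. The members and the lists were chosen with earlier results of these data known. Named genes are the 10 members, the deleted or added genes, INO2 and INO4, each of 37 pathway genes past 2-fold, and the 5 genes nearest to INO1. HNM1, CDS1, INM1, GDE1 and ITR2 fall outside that rule and were chosen after their values were seen. No sample-level replicate exists, and the number of arrays limits the precision. Alternatives were print-tip loess, no background correction, no or a stricter spot filter, spot medians, scaling between arrays, the authors' ratio, and leaving out an array or a repeat spot.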

Additional observations from a re-analysis of the deposited data

How the results depend on the processing

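No paired analysis was possible because arrays 1 and 2 are the dye orientations of 1 pair of samples and no test was run. The ratio of the authors centred on its median was an alternative chosen after seeing the data. In bdf1Δ+HAL2, members past 2-fold higher (1) numbered 0 with both channels above background, where INO1 was not measured, 2 after scaling between arrays, 2 in the authors' ratio, 3 in that ratio centred and 1 to 3 on 1 array. Over all genes that share (0.445%) was 0.43% with both channels above background, 0.75% after scaling, 0.91% in the authors' ratio and 0.925% centred. The share on 1 array is not given here. The members' median (0.76) was 0.70 with both channels above background, 0.88 after scaling and 0.79 to 0.85 on 1 array. Other pathway genes past 2-fold higher (0) numbered 0 to 1 on 1 array, with a median of 0.0424 to 0.133. In bdf1Δhda1Δ the members' median (0.20) was 0.10 by print-tip loess, 0.18 with no background correction, 0.12 with no spot filter, 0.30 after scaling, 0.12 in the authors' ratio, 0.0917 centred and 0.182 to 0.195 on 1 array. Other pathway genes past 2-fold higher (1) numbered 0 by print-tip loess, with no background correction and by spot medians, and 3 in the authors' ratio, centred or not. Over all genes that share (1.06%) was 1.06% by print-tip loess and by spot medians, and 0.868% with no background correction. It was 1.87% in the authors' ratio and 1.76% centred. The median of these pathway genes (−0.07) was −0.0428 with no background correction, −0.11 after scaling, 0.0588 in the authors' ratio, 0.0261 centred and −0.0516 to 0.000739 on 1 array. In bdf1Δ versus W303, members past 2-fold lower (2) numbered 1 by print-tip loess, with both channels above background and after scaling, 8 in the authors' ratio and 4 centred. Over all genes that share (18.4%) was 6.18% by print-tip loess, 13.2% with both channels, 0.759% after scaling, 83.2% in the authors' ratio and 26.4% centred. Members higher (1) numbered 2 with no spot filter, 0 after scaling, 0 in the authors' ratio and 2 centred. Over all genes that share (15.9%) was 24.5%, 0.0542%, 0.502% and 23.8% in these settings, in that order. Measured members (8) numbered 4 with both channels above background and 10 with no spot filter or in the authors' ratio. The members' median (0.06) was 0.25 with no spot filter or with both channels above background, −2.48 in the authors' ratio, −0.12 centred and −0.10 to 0.10 leaving out a repeat spot. Other pathway genes higher (6) numbered 1 by print-tip loess, 13 with no spot filter, 0 after scaling, 0 in the authors' ratio, 11 centred and 4 to 6 leaving out a spot. Those lower (0) numbered 1 by spot medians, 26 in the authors' ratio, 6 centred and 0 to 1 leaving out a spot. Measured pathway genes (24) numbered 37 with no spot filter, 13 with both channels above background and 36 in the authors' ratio. Over all genes 5.94% were higher by print-tip loess and 18.8% lower by spot medians. The other shares are those given for the members, and shares leaving out a spot are not given here. The median of these pathway genes (−0.06) was 0.65 with no spot filter, 0.69 with both channels above background, −2.02 in the authors' ratio, 0.34 centred and −0.108 to 0.0246 leaving out a spot. The cause was not tested.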
